A study of Homo sapiens with 10 samples.

Results

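The genes described are the ligands, receptors and SMAD proteins of the transforming growth factor-β (TGF-β) pathway, together with TGFBI, a matrix protein named for its induction by TGF-β. They were chosen by symbol: TGFB1, TGFB2, TGFB3, TGFBR1, TGFBR2, TGFBR3, SMAD2, SMAD3, SMAD4 and TGFBI. Of these 10 symbols, 9 had a row among the 12125 genes of the table, and TGFB3 was not analysed here. The course of the 9 genes over hepatic differentiation was uneven. TGFB1 was 19.6-fold higher after the first day, from a low value of 9 at day 0. SMAD2 was highest on the last day of the Activin A step. TGFBR2, TGFBR3, SMAD3 and TGFBI were higher in each library after day 5, up to day 13, than in the one before. Some of these steps were small. TGFBR1 and SMAD4 stayed within 2.38-fold and 1.76-fold over all days.

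RNA-seq was performed on the established human embryonic stem cell line H1 during its conversion to hepatocyte-like cells. The day 0 group was undifferentiated and kept in mTeSR1 on Matrigel. The groups of days 1, 2 and 3 had received Activin A at 100 ng/ml in RPMI/B27 without insulin, a step of 3 days. The groups of days 5 and 7 were in the following 4 days of BMP2 at 20 ng/ml with FGF4 at 30 ng/ml, and those of days 9, 11 and 13 in the next 6 days of HGF and KGF at 20 ng/ml each. The day 21 group had 8 further days of OSM (Oncostatin M) at 20 ng/ml in hepatocyte medium. For day 13 the sample label names OSM, whereas the lengths of the steps put it at the end of HGF and KGF. The steps were followed here. Each day was 1 library of 1 cell line, and no culture without Activin A was sequenced in parallel, so days are compared and treatments are not.

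The values are GC-normalized whole numbers. The depth of a library cannot be read from them, and the study's methods give only an average over libraries. Their median was 81 or 82 and their highest value 18734 in every library. They are not scaled to gene length, so the size of a value is compared within a gene only. Sums of markers and ratios of genes are read for their course. A sum is weighted to its highest genes, and 10 genes share the value 18734 in every library. No difference has a replicate check, and no p-value is given. Differences are given on the log2(value + 1) scale, which makes changes of low genes appear smaller. As a measure of how far libraries of 1 medium differ, the standard deviation (SD) of the differences between days 9 and 11 over the 500 genes nearest in level is given beside each difference. It is a low measure, since cells of both days were in the same step. A gene was called higher or lower at a difference of at least 1, that is about 2-fold, where the larger value reached 50.

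Most marker lists followed the labels over most of the course, while the summed hepatoblast markers stayed high at day 21. The summed value of 5 pluripotency markers was 11089 at day 0 and 94 at day 21, and that of 5 endoderm markers was 3469 at day 3. That of 4 hepatocyte markers was 45762 at day 21, with TTR and SERPINA1 at 18734 and ALB at 4866. The 4 hepatoblast markers found summed to 19906 at day 13 and 24069 at day 21. Of these, AFP was at 18734 on both days and DLK1 went from 310 to 4855. HNF4A went from 838 to 470 and HHEX from 24 to 10. Markers of stromal cells were also high at the end, and their values stand beside the genes they move with. In bulk samples, fewer cells of a type and less RNA per cell cannot be told apart.

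TGF-β ligands are secreted as latent complexes that are held in the matrix and released by integrins, proteases and other factors. The active ligand binds the type II receptor TGFBR2, which recruits and phosphorylates the type I receptor TGFBR1. TGFBR3, or betaglycan, is a co-receptor with a short cytoplasmic tail that presents ligand, TGFB2 above all, to TGFBR2. The activated type I receptor phosphorylates SMAD2 and SMAD3, which join SMAD4 and regulate genes in the nucleus. Activin and Nodal use other receptors but the same SMAD2 and SMAD3. In liver, TGF-β is known for growth arrest of hepatocytes and for the activation of stellate cells to matrix-producing cells.

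The 250 bases before the RefSeq start of the 4 genes with the widest range over the days are printed, since these genes carried most of the variation described and they differ in base composition. The windows are on GRCh38.p14 and read 5′ to 3′ on the strand of the gene. TGFB1 lies at chr19:41353923-41354172 (minus strand), TGFB2 at chr1:218345086-218345335 (plus), TGFBR3 at chr1:91886152-91886401 (minus) and TGFBI at chr5:136028738-136028987 (plus). Capitals mark the motifs searched on both strands, namely the GC box GGGCGG, the SMAD box CAGAC, the AP-1 site TGANTCA and the TATA box TATAAA.
TGFB1 promoter: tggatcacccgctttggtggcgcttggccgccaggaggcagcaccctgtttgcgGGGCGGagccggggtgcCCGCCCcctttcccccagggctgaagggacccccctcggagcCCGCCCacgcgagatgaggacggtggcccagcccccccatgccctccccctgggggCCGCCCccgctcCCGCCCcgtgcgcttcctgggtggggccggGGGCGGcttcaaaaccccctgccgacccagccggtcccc
TGFB2 promoter: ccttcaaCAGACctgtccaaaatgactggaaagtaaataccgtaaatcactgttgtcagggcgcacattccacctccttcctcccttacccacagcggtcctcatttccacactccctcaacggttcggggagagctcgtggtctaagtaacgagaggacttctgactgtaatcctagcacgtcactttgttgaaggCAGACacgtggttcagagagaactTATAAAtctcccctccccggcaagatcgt
TGFBR3 promoter: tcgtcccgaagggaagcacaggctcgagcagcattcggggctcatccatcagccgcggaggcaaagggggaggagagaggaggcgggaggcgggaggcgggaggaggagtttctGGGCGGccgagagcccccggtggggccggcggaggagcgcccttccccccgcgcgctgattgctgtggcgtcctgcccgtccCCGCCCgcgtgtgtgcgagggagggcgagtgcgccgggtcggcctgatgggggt
TGFBI promoter: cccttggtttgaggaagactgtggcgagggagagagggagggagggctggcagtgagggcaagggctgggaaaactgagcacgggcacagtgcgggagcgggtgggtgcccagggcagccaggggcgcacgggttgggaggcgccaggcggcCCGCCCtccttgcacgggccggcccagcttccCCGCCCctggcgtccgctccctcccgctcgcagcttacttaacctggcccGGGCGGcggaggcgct
The TGFB1 window held 6 GC boxes, that of TGFBR3 2 and that of TGFBI 3, and the other motifs searched had no match in these 3 windows. The TGFB2 window held 2 SMAD boxes and 1 TATA box and no GC box. Their GC content was 76.8%, 73.6% and 72.8%, against 50.4% for TGFB2. Among 35116 RefSeq windows of the same length the median GC content was 58%, and a GC box was found in 42.6%, a SMAD box in 38%, an AP-1 site in 6.57% and a TATA box in 10.7%. A match of letters is a description and not a binding site.

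**Figure D1:**
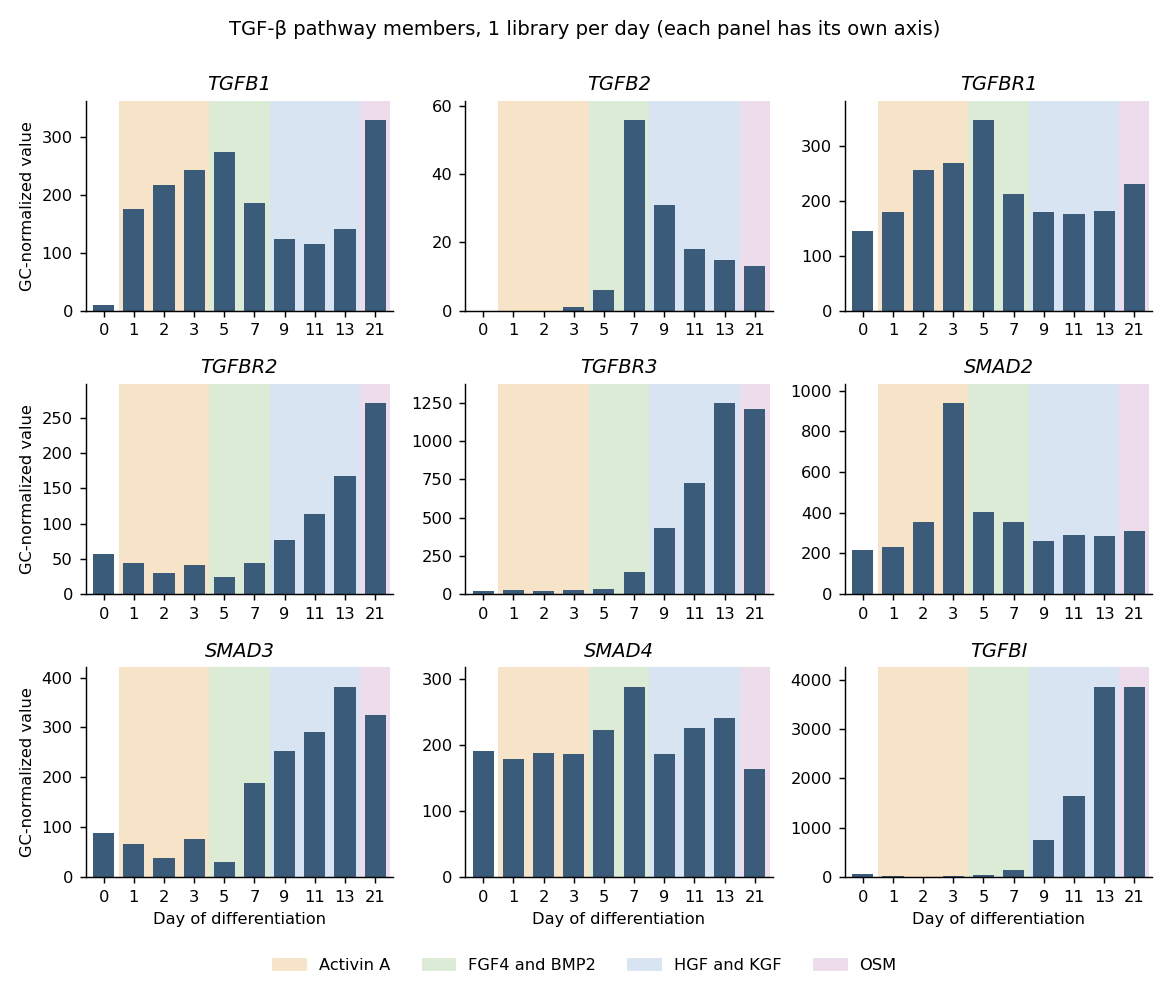
Value of each of the 9 genes (vertical axis, GC-normalized value, own scale in each panel) by day of differentiation (horizontal axis, not to scale), 1 bar per library, with the factor given at each day shaded. TGFB1 stands apart at day 0, SMAD2 has its highest bar at day 3, TGFB2 at day 7, and TGFBR3 and TGFBI rise to their highest bars at days 13 and 21.

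The ligands had different courses. TGFB1 (ENSG00000105329, chr19:41836813-41859831, minus strand) encodes the most widely expressed ligand of the family. Its value was 9 at day 0, then 176, 218, 244, 275 and 186 at days 1, 2, 3, 5 and 7, 124, 116 and 142 at days 9, 11 and 13, and 330 at day 21. Day 0 stood 3.55 log2 units (SD 0.42) below the next library in order. From day 0 to day 1 the difference of 4.15 (SD 0.44) was the 17th largest rise among 8629 genes, and between days 0 and 3 the difference of 4.61 (SD 0.47) ranked 82nd of 8934. The value was lower at days 9 and 11 than at any other day after day 0, and between days 13 and 21 the gene was higher by 1.21 (SD 0.27), which ranked 541st of 8786. In GENCODE 29 the gene overlaps CCDC97 and HNRNPUL1, which lie on the opposite strand, and strand-aware counting is not stated in the sources used here. The intervals of the table itself do not overlap. CCDC97 had a value of 80 at day 0 and 138 at day 1, and HNRNPUL1 628 and 873.

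TGFB2 (ENSG00000092969, chr1:218519577-218617961, plus strand) encodes the ligand whose binding depends most on betaglycan. It was listed at 0 on days 0, 1 and 2, and its values were 1, 6 and 56 on days 3, 5 and 7 and 31, 18, 15 and 13 on days 9, 11, 13 and 21. It passed the filter on low values only at day 7. Between days 5 and 7, within the step of BMP2 and FGF4, the difference was 3.03 (SD 0.63), the 88th largest rise of 8755. Its value was then lower by day 13, with a difference of -1.83 (SD 0.44). When TGFB2 was at its highest TGFB1 had passed its first maximum at day 5, and at day 21, when TGFB1 was highest, TGFB2 had its lowest value since day 5.

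The 3 receptors moved apart. TGFBR1 (ENSG00000106799, chr9:101866320-101895008, plus strand), the type I receptor kinase, had values of 146, 180, 256, 269 and 348 at days 0, 1, 2, 3 and 5, then 212, 180, 176, 182 and 231 at days 7, 9, 11, 13 and 21. It was highest at day 5, and in the order of its levels only days 5 and 3 were neighbours that differed by more than the SD (0.37, SD 0.26). None of the stage comparisons reached 2-fold, the largest being 0.88 (SD 0.29) between days 0 and 3.

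TGFBR2 (ENSG00000163513, chr3:30647994-30735626, plus strand), the type II receptor kinase that binds ligand first, had a different course. Its values were 57, 44, 30, 41 and 24 at days 0, 1, 2, 3 and 5, and 44, 76, 114, 168 and 271 at days 7, 9, 11, 13 and 21. It was lowest at day 5, when TGFBR1 was highest, but days 5 and 2 did not differ beyond the SD (0.31, SD 0.48). Nor did days 0 and 3 (-0.47, SD 0.48). Each library after day 5 was above the one before. The difference between days 7 and 13 was 1.91 (SD 0.35), 3.82-fold, and that between days 13 and 21 was 0.69 (SD 0.27). As a ratio of values, whose course and not whose size can be read, TGFBR2 over TGFBR1 was 0.390 on day 0, reached its lowest value of 0.0690 on day 5, and was 0.923 and 1.17 on days 13 and 21.

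TGFBR3 (ENSG00000069702, chr1:92146455-92327603, minus strand) had the widest range of the receptors. Its values were 18, 24, 22, 27 and 34 at days 0, 1, 2, 3 and 5, followed by 143, 431, 724, 1250 and 1214 at days 7, 9, 11, 13 and 21. All libraries to day 5 were low, and days 13 and 21 did not differ beyond the SD. From day 3 to day 7 the gene was 5.30-fold higher and from day 7 to day 13 it was 8.74-fold higher, and the latter difference of 3.12 (SD 0.25) ranked 122nd of 8892. Day 21 was 67.4-fold above day 0.

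Of the SMADs, SMAD2 (ENSG00000175387, chr18:45357922-45456930, minus strand), one of the receptor-activated pair shared by activin and TGF-β, had a single high library. Its values were 214, 232, 354 and 938 at days 0, 1, 2 and 3, 405 and 352 at days 5 and 7, and 262, 290, 287 and 308 at days 9, 11, 13 and 21. Day 3 stood 1.21 above day 5, the next in order, and no other neighbours in that order differed by more than the SD. The step from day 2 to day 3 was 1.40 (SD 0.28), the 84th largest rise of 8543. A value at least 2-fold above both day 2 and day 5 was found at day 3 for 62 of 9083 genes (0.683%), a pattern looked for after the values were seen. It rests on 1 library.

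SMAD3 (ENSG00000166949, chr15:67356101-67459176, plus strand), the other of the pair, had values of 88, 66, 38, 76 and 30 at days 0, 1, 2, 3 and 5, and 188, 252, 291, 382 and 324 at days 7, 9, 11, 13 and 21. All libraries up to day 5 were low, and the level from day 7 on was above all of them. Between days 5 and 7 the difference was 2.61 (SD 0.34), the 129th largest rise of 8755. Between days 0 and 3 it was -0.21 (SD 0.36), while SMAD2 was 4.38-fold higher over the same days. The ratio of SMAD3 over SMAD2 was 0.411 on day 0, 0.0810 and 0.0741 on days 3 and 5, 0.534 on day 7 and 1.33 on day 13, where it was highest.

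SMAD4 (ENSG00000141646, chr18:48573289-48611415, plus strand), the common partner of TGF-β, activin and BMP SMADs, varied least. Its values were 190, 178, 188 and 186 at days 0, 1, 2 and 3, 222 and 288 at days 5 and 7, and 186, 226, 240 and 164 at days 9, 11, 13 and 21. The largest stage difference was 0.63 (SD 0.25) between days 3 and 7. No comparison of stages reached 2-fold.

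TGFBI (ENSG00000120708, chr5:135364584-135399506, plus strand) encodes a secreted protein that binds collagens and integrins and is widely used as a TGF-β target. Its values were 60, 34, 11, 24 and 38 at days 0, 1, 2, 3 and 5, then 144, 756 and 1640 at days 7, 9 and 11, and 3862 at days 13 and 21. It was lowest at day 2, when TGFB1 was already at 218. From day 0 to day 3 the difference was -1.29 (SD 0.47), and each library after day 2, up to day 13, was above the one before. The step from day 7 to day 9 (2.38, SD 0.25) ranked 40th of 8585 and the difference between days 7 and 13 (4.74, SD 0.28) ranked 46th of 8892. Values near 3862 belong to a level that 9 or 10 genes share in every library, so the equal values of days 13 and 21 do not show equal amounts of RNA.

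By stage, the calls read as follows. At day 3 against day 0, TGFB1 and SMAD2 were higher and TGFBI was lower among 7 genes past the filter, where 11.1% of all 8934 genes were higher and 9.07% lower. After the first day TGFB1 alone of 7 was higher and none was lower, against 4.01% and 4.71% of all genes. At day 7 against day 3, TGFB2, TGFBR3, SMAD3 and TGFBI were higher and SMAD2 was lower of 8, against 13.2% and 12.8%. The median over the 8 was 0.96, and over all genes -0.04.

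At day 13 against day 7, TGFBR2, TGFBR3, SMAD3 and TGFBI were higher and TGFB2 was lower of 9, against 9.65% and 8.21% of all 8892 genes. SMAD3 was just past a difference of 1, and its call was lost with the mean of days 9, 11 and 13 (0.69) or day 11 (0.63) in place of day 13. The median of the 9 was nonetheless -0.22 and that of all genes -0.05, since the 5 others had differences below 0. At day 21 against day 13, TGFB1 alone of 8 was higher and none was lower, against 8.57% and 9.08%. From end to end, TGFB1, TGFBR2, TGFBR3, SMAD3 and TGFBI were higher in the last library than in the first and none of the 8 was lower, against 23.9% and 26.4% of all genes. Within the HGF and KGF step, at day 11 against day 9, TGFBI alone of 8 was higher (1.12) and none was lower, against 1.04% and 0.568%.

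Among successive libraries, the step from day 5 to day 7 held the most differences. Of 8 genes past the filter, 6 differed by more than 2 SD there, where 25.9% of all genes did. TGFB2, TGFBR3, SMAD3 and TGFBI were higher, and TGFB1 (-0.56, SD 0.25) and TGFBR1 (-0.71, SD 0.27) were lower. Both days belong to the step of BMP2 and FGF4. In the other steps fewer did. They were TGFB1 of 7 from day 0 to day 1 (17.8% of all genes), SMAD2 of 5 from day 1 to day 2 (15.7%), SMAD2 and SMAD3 of 5 from day 2 to day 3 (11.4%), when both were higher, and the same pair of 5 from day 3 to day 5 (26.8%), when both were lower. From day 7 to day 9 these were TGFBR3, SMAD4 and TGFBI of 9 (14.2%), and TGFBR3 and TGFBI of 8 from day 9 to day 11 (5.06%) and from day 11 to day 13 (7.99%). The SD was taken from the step of day 9 to day 11, which fixes the share of all genes there. TGFB1 and TGFBR2 of 8 differed by that much from day 13 to day 21 (33.7%).

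A value higher in each library after day 5, up to day 13, and at least 2-fold higher in the last than in the first, was found for TGFBR2, TGFBR3, SMAD3 and TGFBI, 4 of 9 genes, and for 5.45% of all 9109 genes past the filter. The pattern was not among the planned comparisons and describes these same values, so the shares are not a test. Over the 10 libraries, which share neighbouring days, the log2 levels of these 4 genes had Pearson correlations of 0.87 to 0.97. The highest was that of TGFBR3 with TGFBI. Since the 4 genes were picked for a shared rise, such correlations follow in part from the choice. TGFB1 correlated best with TGFBR1 (0.71). Single steps of the rise could be small. From day 9 to day 11 SMAD3 differed by 0.21 (SD 0.27), and no step of TGFBR2 from day 7 to day 13 passed 2 SD. These are descriptions of 1 time course.

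Most markers of stromal cells were high in the same libraries as these 4 genes. All 10 stromal markers were in the table, and their summed values were 1500 and 5314 on days 5 and 7, 19114, 21353 and 38239 on days 9, 11 and 13, and 39957 on day 21, against 2137 to 3059 from day 0 to day 3. THY1 went the other way, with 2164 on day 0, most of the sum of that day, and 12 on day 21, and TAGLN was highest on day 1 (1434). COL1A2, at 6496 on day 11 and 18734 on days 13 and 21, carried much of the later sums. At day 7 against day 3, 5 of 8 stromal markers were higher, and TAGLN and THY1 were lower, against 13.2% and 12.8% of all genes. LUM was at 0 from day 0 to day 3, COL3A1 at day 0, and DCN at days 2 and 3. Between days 7 and 13, 8 of 9 stromal markers past the filter were higher and none was lower, against 9.65% and 8.21% of all genes. The median of the 9 was 1.80, and that of all genes -0.05. At day 21 against day 13, PDGFRA was higher and TAGLN was lower of 9, counts near the 8.57% and 9.08% of all genes. Of 5 endothelial markers, whose sum was 373 at day 7 and 1950 at day 13, all 3 past the filter were higher, while EMCN was at 0 on days 0, 1, 5 and 7. Of 4 hepatocyte markers, 3 were higher at day 13 against day 7, against 9.65% of all genes, with a median of 1.90. The part of stromal, endothelial or hepatocyte cells in the values of TGFBR2, TGFBR3, SMAD3 and TGFBI was not tested.

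**Figure D2:**
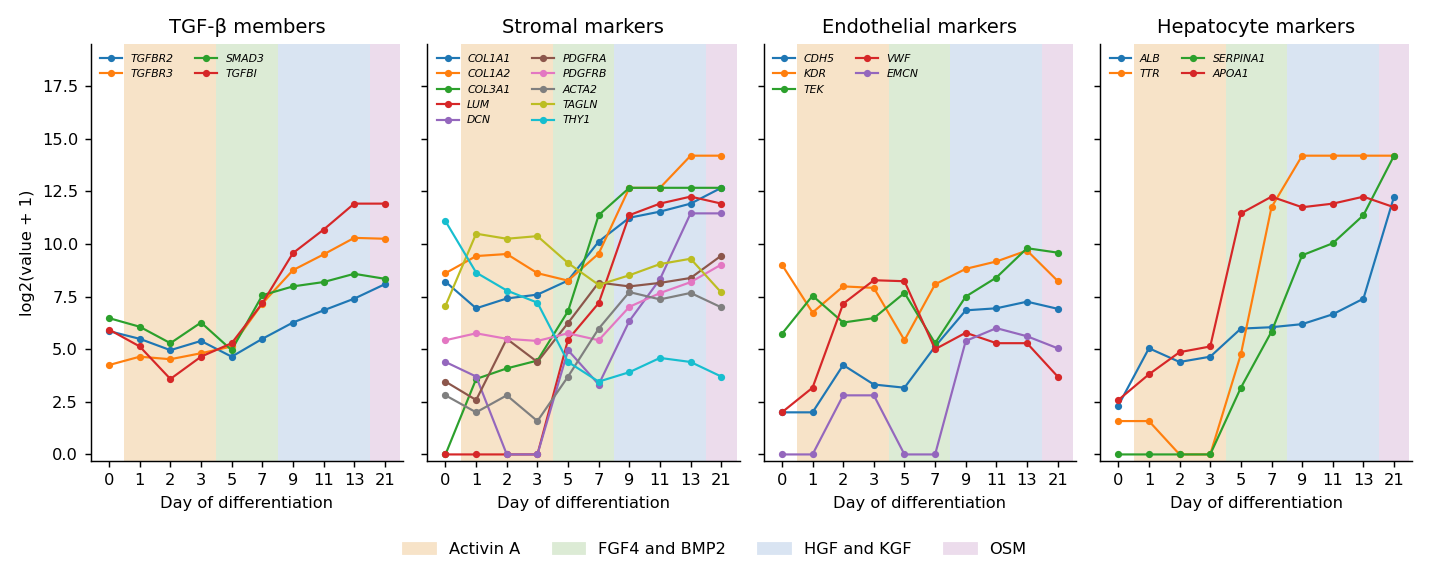
Values as log2(value + 1) (vertical axis) by day of differentiation (horizontal axis, not to scale) for TGFBR2, TGFBR3, SMAD3 and TGFBI and for the markers of stromal, endothelial and hepatocyte cells, 1 line per gene and 1 point per library. The 4 genes and most stromal and hepatocyte markers are higher at day 13 than at day 7, while TTR and APOA1 are already high at day 7.

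Genes around the ligand and receptors were counted by the same rule. Of the genes for latency, storage and activation of the ligand, 10 of 12 were in the table. At day 3 against day 0, 3 of 6 past the filter were higher (ITGAV, FURIN and FBN1) and none was lower, against 11.1% and 9.07% of all genes. At day 7 against day 3, 6 of 10 were higher and LTBP4 was lower, against 13.2% and 12.8%, with a median of 1.34. LRRC32, or GARP, which tethers latent TGF-β to the cell surface, had values of 2, 52 and 126 on days 3, 5 and 7, and of 373, 378, 421 and 362 on days 9, 11, 13 and 21. LTBP2, of the family of latent TGF-β binding proteins, had its highest value at day 5 (152) and was at 15 by day 13. LTBP3, which binds the latent complex covalently, was at 38 on day 3, 122 on day 7 and 362 on day 21. FBN1, the microfibril protein to which these complexes attach, was at 54 on day 7, 1214 on day 13 and 3863 on day 21, a shared level.

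At day 13 against day 7 the latency genes were split, with 2 of 10 higher (LRRC32 and FBN1) and 3 lower (LTBP2, ITGAV and ITGB8), against 9.65% and 8.21% of all genes. At day 21 against day 13, 3 of 9 were higher, namely LTBP2, LTBP4 and FBN1, and none was lower, against 8.57% and 9.08%. LRRC32 and FBN1 were thus high in the same libraries as TGFBR3 and TGFBI.

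Of 14 inhibitors and feedback genes, all in the table, 2 were higher and none was lower at day 3 against day 0, counts near the 11.1% and 9.07% of all genes. These were PMEPA1, a TGF-β-induced membrane protein that sequesters receptor SMADs, and SMAD6, an inhibitor mainly of BMP signalling. PMEPA1 had values of 104, 194, 215 and 299 at days 0, 1, 2 and 3, and 18 and 23 at days 5 and 7, with 9 to 21 later. It was high only in the libraries of days 0 to 3, and its difference from day 3 to day 7 was -3.64. SMAD6 reached 584 at day 5 from 102 at day 3, and was at 58 by day 21. BAMBI, a decoy receptor without kinase, was at 118 on day 3 and 714 on day 5, and stayed at 442 or above.

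At day 7 against day 3, 2 of 14 inhibitors were higher (SMAD6 and BAMBI) and PMEPA1 was lower, against 13.2% and 12.8% of all genes. At day 13 against day 7, SMURF2 was higher and 4 of 13 were lower, namely SMAD6, SMAD7, SKIL and TGIF1, against 9.65% and 8.21%, with a median of -0.36. TGIF1, a repressor that binds SMAD2, was highest at day 5 (524) and lowest at day 21 (101). None of 13 was called between days 13 and 21, and the median was -0.22.

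Among 12 adaptors and nuclear partners of SMADs, all in the table, the counts were near those of all genes. At day 3 against day 0 and at day 7 against day 3, DAB2 alone of 10 was higher and none was lower, against 11.1% and 13.2% higher among all genes. DAB2, an endocytic adaptor that binds TGF-β receptors and SMAD2 and SMAD3, was at 51 on day 3 and 650 on day 5. At day 13 against day 7, WWTR1 (TAZ) was higher and FOXH1 was lower of 10, against 9.65% and 8.21%. FOXH1, the DNA-binding partner of SMAD2 in activin and Nodal responses, had values between 162 and 278 from day 0 to day 5, 146 at day 7 and 24 at day 11, and was listed at 0 on day 13. At day 21 against day 13, RUNX2 and FOXO3 were higher of 10, against 8.57%.

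The 22 genes widely reported as TGF-β targets were all in the table, and 3 of them (COL1A1, COL1A2 and TAGLN) are also stromal markers. At day 1 against day 0, 6 of 14 past the filter were higher and 2 were lower, against 4.01% and 4.71% of all genes. At day 3 against day 0, 10 of 15 were higher and none was lower, against 11.1% and 9.07%, with a median of 1.62 against -0.06 for all genes. They included CTGF, a matricellular protein with values of 184, 2640 and 416 on days 0, 1 and 3. Many of these genes are also induced by activin through the same SMADs, and the days do not tell the ligands apart. TGFBI and SMAD3 were not higher over these days.

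At day 7 against day 3 the targets divided evenly, 4 of 17 higher and 4 lower, against 13.2% and 12.8%. At day 13 against day 7, 9 of 17 were higher and COL4A1 was lower, against 9.65% and 8.21%, with a median of 1.24 against -0.05 for all genes. COL1A2, a chain of type I collagen, was at 745 on day 7 and 18734 on day 13, the highest value the table holds. POSTN, a matrix protein of the same family as TGFBI, was at 62 on day 7 and 1252 on day 13, and LOX, which crosslinks collagen, was at 62 and 518. SNAI2, a repressor of epithelial genes, was at 49 and 291. At day 21 against day 13, 4 of 20 were higher and 2 were lower, against 8.57% and 9.08%, and LOX reached 6496, a shared level. The stromal markers above moved over the same days, and their part in these counts was not tested.

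**Figure D3:**
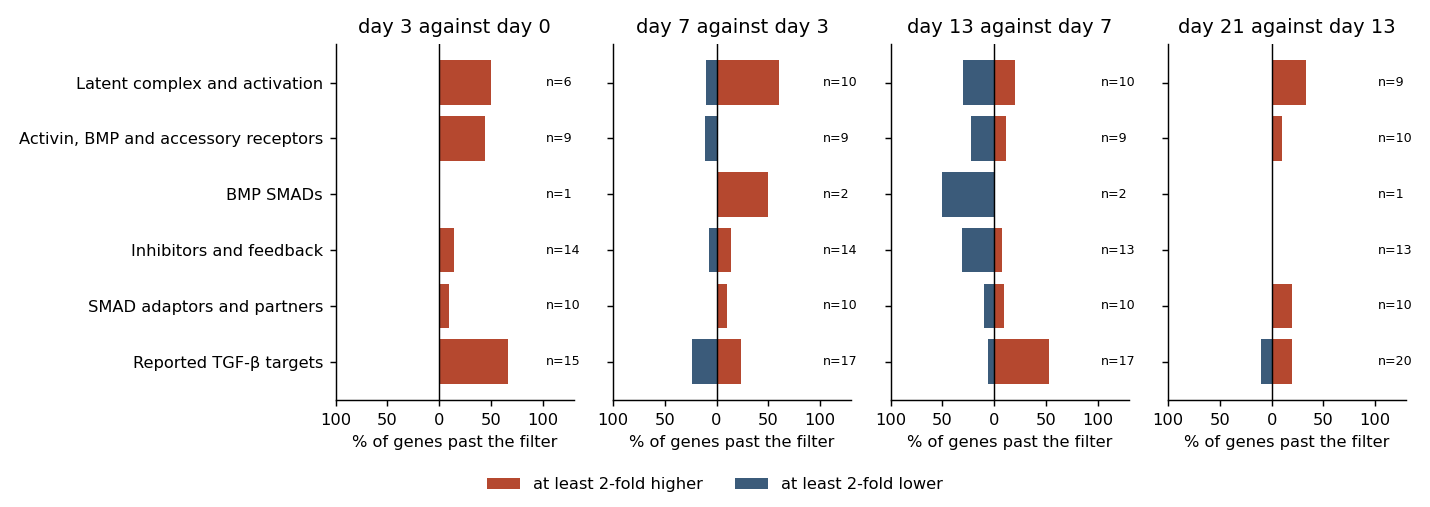
Share of the genes of each pathway list past the filter that were at least 2-fold higher (red, to the right) or lower (blue, to the left) between libraries, in percent (horizontal axis), with the number of genes past the filter at the right. Of the reported targets, 10 of 15 were higher at day 3 against day 0 and 9 of 17 at day 13 against day 7, and of the latency genes 6 of 10 were higher at day 7 against day 3.

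For each gene with a range of at least 1, the genes with the most similar course over the 10 libraries among 8479 were listed, as a description. TGFBR3 was closest to FMO1, a flavin-containing monooxygenase (Pearson r = 0.996), then to HOXB3, a homeobox factor, and to TFPI, an inhibitor of coagulation (0.993). FMO1 and HOXB3 were at 0 from day 0 to day 3 and at 1 and 2 on day 5. TGFBI was closest to CD47 (0.991), a surface protein that inhibits phagocytosis, and to NPNT (0.990), a matrix ligand of integrins. SMAD3 was closest to TSHZ1 (0.990) and TGFBR2 to UBA7 (0.993), the activating enzyme of ISG15. TSHZ1 was at 5 or less up to day 5 and UBA7 at 3 or less up to day 7. Where a gene stays near 0 up to day 5 or 7, its correlation rests mostly on the later libraries. TGFB1 was closest to HEG1 (0.945) and MXRA5 (0.927), TGFBR1 to DKK3 (0.957), and TGFB2 to TMED9 (0.986). SMAD2 had less similar genes, with SDCBP first at 0.919.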

How the data were processed

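The authors aligned the reads with Bowtie2 2.2.0 to Ensembl transcripts given as mm10 v76, estimated expression with RSEM 1.2.17 and normalized for GC content with EDASeq 2.0.0. The table the authors deposited holds whole-number scores for 12125 genes, not counts. Their distribution is nearly the same in every library, so depth cannot be read from them, no counting interval is given, and differences are relative to the other genes of a library. Values of 2020 or more fall into shared levels, and lower values were not examined for such levels. Some lower values recur as well. The 1214 of TGFBR3 on day 21 was also the value of FBN1 on day 13. The 1640 of TGFBI on day 11 was also that of NPNT on day 21. The submitters' processing notes list hg19 and mm10. Gene intervals are those of the table, in which no build is named, and promoter windows come from RefSeq on GRCh38.p14, in which all 9 genes were matched by symbol.

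Values were compared as log2(value + 1) with Python 3.11.15, numpy 2.4.6 and pandas 2.3.3 (plots with matplotlib 3.10.9), by the rule given in the text. The code was tested on simulated data. All 10 sample columns were used. Genes named were the members, the 4 genes of widest range in each pathway list, genes whose calls are counted, cell type markers and the closest genes by correlation. CTGF and others with calls were named after their values were seen. The values of 1 gene are not reported here. The members and lists were chosen with earlier results of these data known.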

Additional observations from a re-analysis of the deposited data

How the results depend on the processing

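With 1 library per day no difference has a replicate check. No paired analysis was possible because each group has 1 library. Other pseudocounts (0.1 and 5), median-of-ratios scaling, filters, a stricter fold and neighbouring libraries were tried. Of 189 log2 differences recomputed, 163 moved by less than the SD, 26 moved by more and none changed direction once called. Of 72 counts, 61 stayed within 1.5 times. With a log2 difference of at least 2, the higher genes at day 13 against day 7 went from 4 to 2 (TGFBI and TGFBR3, against 3.08% of all genes), those at day 21 against day 13 from 1 to 0, and the lower genes at day 3 against day 0, day 7 against day 3 and day 13 against day 7 each from 1 to 0. With 100 required of the larger value, the lower genes at day 3 against day 0 and day 13 against day 7 each went from 1 to 0. With the mean of days 1 to 3 in place of day 3, SMAD2 was no longer called, which left 1 higher gene against day 0 and 0 lower at day 7. With the mean of days 9, 11 and 13, and with day 11 alone, an alternative chosen after seeing the data, 3 genes were higher at day 21 in place of 1, TGFB1, TGFBR2 and TGFBI. Median-of-ratios scaling moved the median of all genes by 0.19 at day 21 against day 0 and by less than 0.1 in the other stage comparisons. The values do not show depth, so low values such as those of TGFB2, or the 9 of TGFB1 at day 0, have no counting error attached.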

Other observations

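Of 13 activin, BMP and accessory receptors, 12 were in the table, and their members went both ways. At day 3 against day 0, 4 of 9 past the filter were higher, TDGF1, BMPR1B, BMPR2 and NRP1, and none was lower, against 11.1% and 9.07% of all genes. TDGF1 (Cripto), the co-receptor for Nodal, had values of 1044, 2638, 2021 and 2428 at days 0, 1, 2 and 3, then 768 at day 5, 92 at day 7 and 8 or less from day 9. It was called lower at day 7 against day 3, the only one of 9, against 12.8% of all genes. At day 13 against day 7 it was lower with ACVR2B, and ACVRL1 was higher of 9, against 8.21% and 9.65%. ACVRL1, a type I receptor best known from endothelium, was at 0 to 3 up to day 7 and at 24, 38, 51 and 41 at days 9, 11, 13 and 21. ENG (endoglin), a co-receptor also known from endothelium, was at 8, 52, 24 and 21 on days 0, 1, 2 and 3, at 3 on day 7, and at 50 and 94 on days 9 and 21. The summed endothelial markers were at 575 on day 0, 652 on day 3, 373 on day 7 and 1950 on day 13. Their part in these values was not tested. NRP1, a co-receptor that also binds TGF-β, was at 5 on days 0 and 1 and 164 on day 21. At day 21 against day 13, ACVR2A alone of 10 was higher, against 8.57%, and at day 21 against day 0, 6 were higher and 3 lower of 10, against 23.9% and 26.4%.

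Of the SMADs of the BMP arm, SMAD9 was at 6 on day 3, at 108 and 159 on days 5 and 7, when BMP2 was given, and at 133, 91 and 43 on days 9, 11 and 13, after it. SMAD5 ranged from 148 to 342 and SMAD1 from 22 to 53.

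Values were also read for markers of red cell precursors and leukocytes. Of 6 symbols each, 4 and 2 were in the table. The red cell markers summed to 3634 at day 13 and 1754 at day 21, and the leukocyte markers PTPRC and CD68 to 0 at day 3 and 324 at day 21. Of 5 bile duct markers, KRT19 alone of 3 past the filter was higher at day 3 against day 0, against 11.1% of all genes. At day 7 against day 3, KRT19 and CFTR were higher of 4, against 13.2%. KRT19 and SPP1 were lower of 4 at day 13 against day 7, against 8.21%. SPP1 alone of 4 was higher at day 21 against day 13, against 8.57%, with 26 on day 13 and 1896 on day 21. Their part in the values of the TGF-β genes was not tested.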
